A study of Oryctolagus cuniculus with 9 samples.

Results

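The FOS and JUN genes encode the subunits of activator protein 1 (AP-1), a transcription factor that binds DNA as a dimer of basic leucine zipper proteins. Rows were taken by symbol from 7 names (FOS, FOSB, FOSL1, FOSL2, JUN, JUNB and JUND). Of the 19291 genes listed, 5 carried one of them: FOS, FOSB, FOSL1, FOSL2 and JUN. JUNB and JUND were not analysed here, so the JUN side of the family is represented by JUN alone. All 5 genes had enough counts to be tested, among 12324 genes in all.

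JUN proteins can pair with each other or with a FOS protein, whereas FOS proteins need a partner from another family and in AP-1 usually take a JUN protein. FOS and FOSB are immediate early genes: growth factors and serum switch them on within minutes through MAP kinases and serum response factor, and their messages decay quickly. FOSL1 and FOSL2 encode FRA1 and FRA2, which lack the strong activation domain of FOS and FOSB and usually appear later and stay longer. In smooth muscle cells AP-1 is known for its part in growth, migration and matrix turnover.

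The 9 libraries came from HA-VSMC, a cultured cell line. Its organism is labelled as rabbit, which was not checked; the name HA-VSMC is also in use for a human aortic smooth muscle line. Of these, 3 were controls, 3 had received 50 nM and 3 had received 250 nM of β-estradiol, an estrogen, and cells were collected after 48 h. All groups grew in RPMI medium with fetal bovine serum, and serum is itself an inducer of FOS. Estradiol was dissolved in DMSO, and the labels do not say whether the controls received that vehicle. The treatment protocol names only 250 nM, and the control samples also carry the tag estrogen for their treatment. Nothing in the labels says that replicates were separate cultures. The p-values therefore reflect the spread among these particular libraries only, and that spread may be technical.

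The libraries held 54718407 to 72274464 deposited counts each, or about 13679602 to 18068616 fragments at roughly 4 counts a fragment. Of the 10 smooth muscle markers, 8 were listed, and their summed FPKM (fragments per kilobase, scaled to library size) was 2705 to 2866 in controls, 2626 to 2800 at 50 nM and 2687 to 2742 at 250 nM. ACTA2, CALD1 and TPM2 were high, but MYH11, which marks contractile smooth muscle, averaged 5.18 FPKM, MYLK 0.443 FPKM, and DES was listed at 0. TAGLN and CNN1 were not analysed here. The defining endothelial, epithelial and leukocyte genes PECAM1, EPCAM and PTPRC averaged 0.202, 0 and 0.00224 FPKM. The 5 fibroblast markers, most of whose signal came from COL1A1, summed to 1980 to 2072 FPKM in controls, 2166 to 2258 FPKM at 50 nM and 2202 to 2312 FPKM at 250 nM. The controls were thus below both treated groups on that list, as they were above them for FOS, and the part of these markers in the results on FOS was not tested.

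FOS, the founding member of its family, was highest in the controls, lowest at 50 nM and between them at 250 nM. In normalised counts (CPM, scaled to each library's total and its TMM factor), the controls had 111, 96.9 and 125. The 50 nM libraries had 42.0, 35.2 and 36.9 CPM, and the 250 nM libraries 80.6, 74.6 and 62.8 CPM. No library of one group overlapped another group. With lower CPM in bulk RNA, fewer cells of a type and less RNA per cell cannot be told apart.

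FOS fell 2.92-fold at 50 nM, with 111 ± 14.0 CPM in controls and 38.1 ± 3.55 CPM under treatment (mean ± SD, n = 3). Its log2 fold change was -1.55 ± 0.10 (SE, edgeR adjusted p = 3.61e-07) and stayed past the threshold in all 21 alternatives. It fell 1.53-fold at 250 nM, where it had 72.6 ± 9.05 CPM, a log2 fold change of -0.61 ± 0.10 (edgeR adjusted p = 0.0146). Between the concentrations, FOS was 1.91-fold higher at 250 nM than at 50 nM (0.93 ± 0.10, 95% interval 0.71 to 1.15, edgeR adjusted p = 0.000366), with all 3 libraries above all 3 of the other group. The fall at 250 nM lost its call without control replicate 1 or 3 (adjusted p = 0.061 and 0.0973) or 250 nM replicate 2 or 3 (0.0684 and 0.104), and on log2 FPKM values (0.0663 to 0.17). The difference between concentrations missed the threshold in 1 setting, log2(FPKM + 1) without a filter (0.0535).

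**Figure D1:**
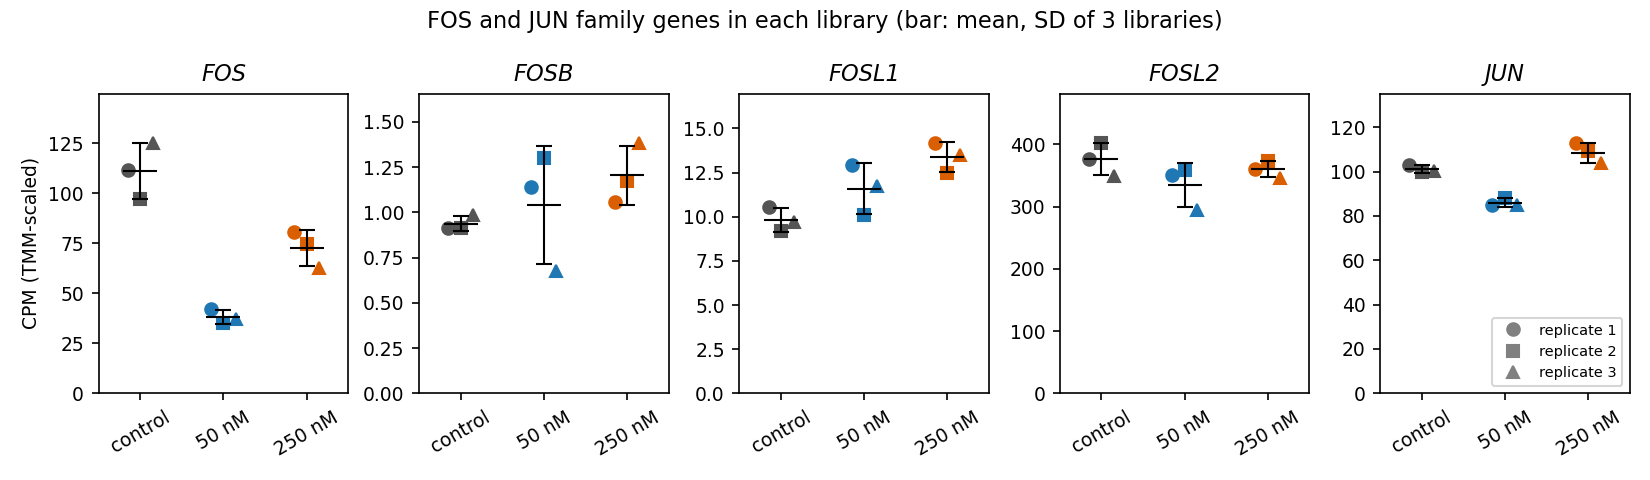
CPM of the 5 genes (vertical axes, each from 0) in the control, 50 nM and 250 nM libraries; each point is 1 library, its shape the replicate number, and bars give the mean ± SD of 3. FOS steps from 111 CPM in controls to 38.1 CPM at 50 nM and 72.6 CPM at 250 nM, while JUN dips to 86.0 CPM at 50 nM and FOSL1 is highest at 250 nM.

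JUN, which encodes a usual partner of the FOS proteins, was lowest at 50 nM as well, by a much smaller step. The controls had 103, 99.6 and 100 CPM and the 50 nM libraries 84.8, 88.2 and 85.0 CPM. At 250 nM the values were 113, 109 and 104 CPM, above every control. In CPM the 3 groups did not overlap, and replicates lay close together, with a coefficient of variation of 1.76% to 4.17%. In deposited FPKM the 250 nM and control groups overlapped. There, 250 nM replicate 3 had 103.47 FPKM, below control replicates 1 and 3 (106.53 and 103.56 FPKM).

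JUN fell 1.17-fold at 50 nM (101 ± 1.78 to 86.0 ± 1.90 CPM, n = 3; log2 fold change -0.23 ± 0.05, edgeR adjusted p = 0.0279). At 250 nM JUN had 108 ± 4.52 CPM and did not pass against the control (0.10 ± 0.05, 95% interval -0.01 to 0.22, edgeR adjusted p = 0.643). It was 1.26-fold higher at 250 nM than at 50 nM (0.34 ± 0.05, edgeR adjusted p = 0.00933). The fall at 50 nM lost its call without control replicate 1, 2 or 3 (adjusted p = 0.0746, 0.0512 and 0.0956), without 50 nM replicate 1 or 2 (0.111 and 0.0537) and without 250 nM replicate 2 (0.0514). It also lost it with only those 2 groups in the fit (0.0727), although the log2 fold change stayed between -0.28 and -0.22 in all 21 alternatives. The rise from 50 to 250 nM lost its call without 50 nM replicate 1 (0.074) and without 250 nM replicate 1 or 2 (0.0918 and 0.0731).

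FOSL1, which encodes FRA1, had its lowest values in the controls. They were 10.6, 9.21 and 9.71 CPM there, 12.9, 10.1 and 11.7 CPM at 50 nM, and 14.1, 12.5 and 13.5 CPM at 250 nM. The 250 nM libraries lay above every control, and the 50 nM libraries overlapped both other groups. FOSL1 did not pass at 50 nM (0.24 ± 0.11, 95% interval 0.01 to 0.46, edgeR adjusted p = 0.293). At 250 nM it was 1.36 times the control, at 13.4 ± 0.849 against 9.83 ± 0.681 CPM (n = 3), and did not pass either (0.44 ± 0.11, 95% interval 0.22 to 0.67, unadjusted p = 0.000794, edgeR adjusted p = 0.13). DESeq2 called this difference (0.45, adjusted p = 0.0182), in a fit that called 1.14% of all genes tested. Between the concentrations the difference was 0.21 ± 0.11 (95% interval -0.02 to 0.43, edgeR adjusted p = 0.944).

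FOSL2, which encodes FRA2, passed in none of the comparisons. Its values were 376, 401 and 350 CPM in controls, 351, 359 and 294 CPM at 50 nM, and 360, 373 and 347 CPM at 250 nM. In CPM the groups overlapped in every pairing, and 50 nM replicate 3 was the lowest of the 9. In deposited FPKM, which ran lower at 50 nM over all genes, the 50 nM libraries (168 to 200) lay below every control (206 to 233). The log2 fold change was -0.17 ± 0.07 at 50 nM (95% interval -0.32 to -0.01, edgeR adjusted p = 0.277) and -0.06 ± 0.07 at 250 nM (-0.22 to 0.09, edgeR adjusted p = 0.895). Without 50 nM replicate 3 the difference at 50 nM was -0.08. Between the concentrations it was 0.11 ± 0.07 (-0.05 to 0.26, edgeR adjusted p = 1 when rounded to 3 digits).

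FOSB, the closest relative of FOS in function, was near the limit of these libraries, with 37 to 99 deposited counts, or about 9.25 to 24.75 fragments. It had 0.915, 0.915 and 0.984 CPM in controls, 1.14, 1.30 and 0.678 CPM at 50 nM, and 1.06, 1.18 and 1.38 CPM at 250 nM. The 50 nM group held both values above all controls and the lowest value of all, in replicate 3. Counting error alone at that depth is about 22.8% to 25.6% of the value, which is more than the spread seen among the controls (4.26%). FOSB did not pass at 50 nM (0.15 ± 0.30, 95% interval -0.49 to 0.79, edgeR adjusted p = 0.884), at 250 nM (0.36 ± 0.30, -0.27 to 0.995, edgeR adjusted p = 0.826) or between the concentrations (0.21 ± 0.30, -0.42 to 0.84). A fall of FOSB as large as that of FOS at 50 nM lies outside its interval, and changes within the interval were not detectable at this depth. Without 50 nM replicate 2 the estimate at 50 nM was -0.04, and without 50 nM replicate 3 it was 0.38. Without the latter the difference between the concentrations was -0.02.

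**Figure D2:**
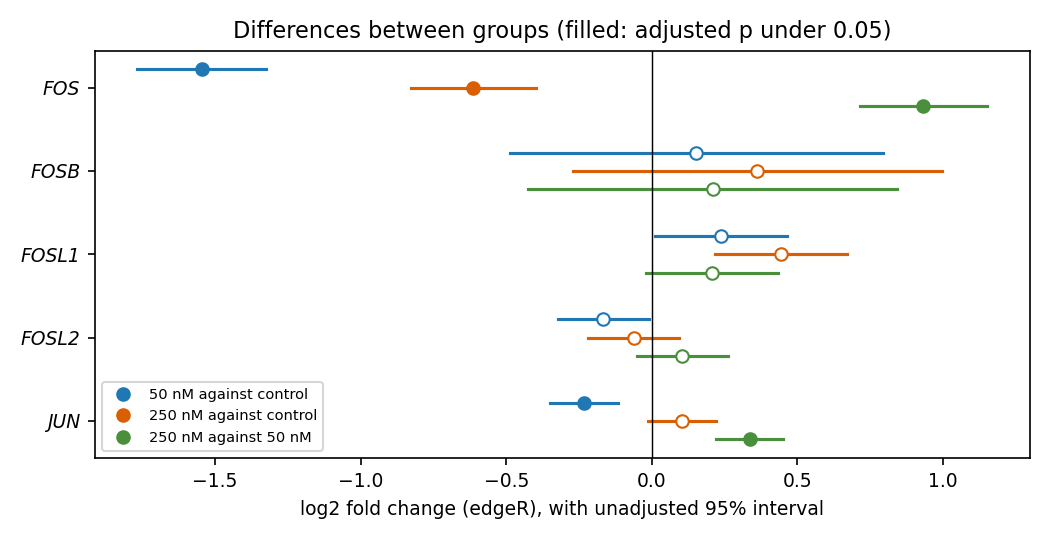
Log2 fold changes (horizontal axis) of the 5 genes in the 3 comparisons, with their unadjusted 95% intervals; filled points passed edgeR's adjusted p of 0.05. FOS at -1.55, -0.61 and 0.93 stands farther from 0 than the other members in each comparison, and the intervals of FOSB are the widest.

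In count, 2 of the 5 genes were called at 50 nM, FOS and JUN, both lower; of all genes tested 3.25% were called, and 1.70% were called lower. At 250 nM 1 of 5 was called, FOS, lower, against 0.308% of all genes in either direction and 0.105% lower. Between the concentrations FOS and JUN were called, both higher at 250 nM, against 0.325% of all genes and 0.187% higher. The comparisons with control share the 3 control libraries and are not independent of each other. In CPM, groups did not overlap for 2 of 5 members at 50 nM (19.0% of all genes), 4 of 5 at 250 nM (15.5%) and 2 of 5 between the concentrations (11.5%). The 4 separated at 250 nM were FOS, which was lower, and FOSB, FOSL1 and JUN, which were above the controls. In deposited FPKM, JUN at 250 nM overlapped the controls, and FOSL2 at 50 nM lay below every control. The median log2 fold change of the 5 was -0.17, 0.10 and 0.21 in the 3 comparisons, beside medians of 0.00 over all genes.

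The deposited FPKM values allow the members to be compared with one another per length. FOSL2 was the most abundant in every library, at 168 to 233 FPKM, followed by JUN at 84.3 to 113 FPKM. FOS had 11.3 to 42.2 FPKM, FOSL1 10.9 to 16.6 FPKM and FOSB 0.668 to 1.37 FPKM. FOS and FOSL1 were neighbours whose order differed between groups: FOS was the higher in all 3 controls and all 3 libraries at 250 nM, and the lower in all 3 at 50 nM. This order depends on the length the authors' annotation gives each gene. From the ratio of counts to FPKM, the length used for FOS was 3.05 times that used for JUN, that for FOSL2 1.75 times and that for FOSL1 0.859 times, while the lengths for FOSB and JUN were close. An incomplete gene model for any of them would shift its FPKM in all libraries alike.

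FOSL2 made up 58.9% ± 2.55 (SD, n = 3) of the members' summed FPKM in controls, 62.8% ± 2.32 at 50 nM and 58.0% ± 1.07 at 250 nM. The share of FOS was 10.0% ± 1.53 in controls, 4.11% ± 0.414 at 50 nM and 6.70% ± 0.613 at 250 nM. JUN held 27.7% ± 0.857, 28.3% ± 1.84 and 30.6% ± 0.497, and FOSL1 3.14% ± 0.239, 4.45% ± 0.657 and 4.39% ± 0.34. The sum itself was 374 ± 8.52 FPKM in controls, 301 ± 18.7 FPKM at 50 nM and 355 ± 13.9 FPKM at 250 nM. FPKM ran lower at 50 nM over all genes fitted, with a median log2 fold change of -0.05 on log2(FPKM + 1). In the main fit on counts that median was -0.002. FOSL2, the largest part of the sum, passed in no comparison. FOSL2 and JUN together made up most of the summed level in each library.

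**Figure D3:**
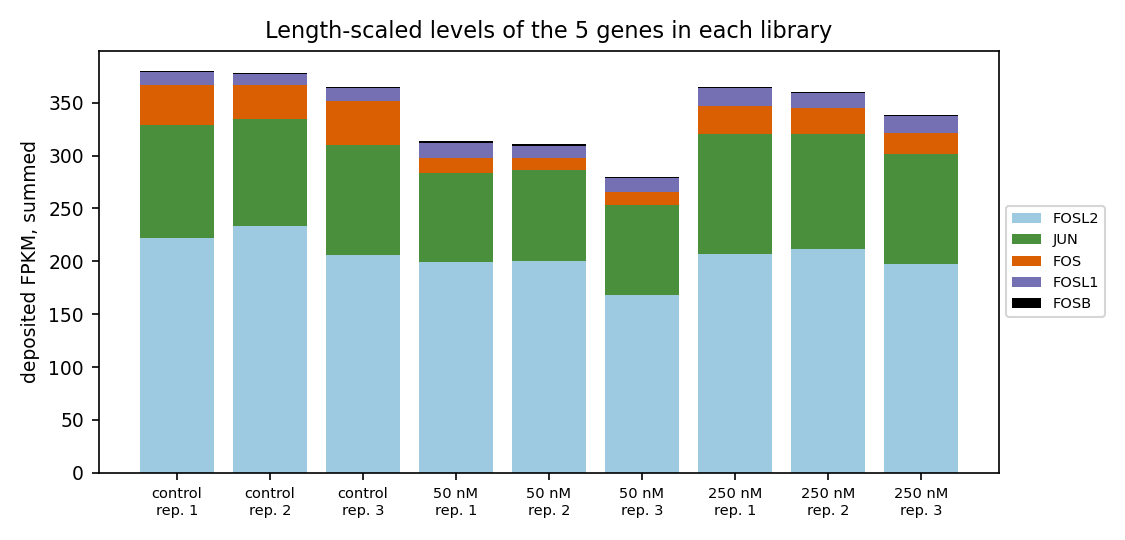
Deposited FPKM of the 5 genes stacked for each of the 9 libraries (vertical axis, from 0), by group and replicate. FOSL2 and JUN fill most of each bar, and the FOS segment is narrowest in the 3 libraries at 50 nM, where it is 4.11% of the bar on average.

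Ratios between members within a library do not depend on how libraries are scaled. The FPKM ratio of FOS to JUN was 0.354, 0.319 and 0.408 in controls, 0.162, 0.131 and 0.142 at 50 nM, and 0.234, 0.224 and 0.198 at 250 nM. The groups did not overlap. On average it was 2.48-fold lower at 50 nM than in the controls, 1.64-fold lower at 250 nM than in the controls, and 1.51-fold higher at 250 nM than at 50 nM. The ratio of FOS to FOSL2 was 0.17, 0.138 and 0.205 in controls, 0.0686, 0.0563 and 0.072 at 50 nM, and 0.128, 0.115 and 0.104 at 250 nM, also without overlap. The ratio of FOS to FOSL1 went from 2.96 to 3.62 in controls to 0.884 to 0.981 at 50 nM and 1.31 to 1.69 at 250 nM.

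The ratio of FOSL2 to JUN averaged 2.12 in controls, 2.22 at 50 nM (exact permutation p = 0.6 against control) and 1.90 at 250 nM. Each library at 250 nM was below every library of the other groups. For 18 of 30 tests, 10 pairs in 3 comparisons, the groups did not overlap, and each of these had the exact two-sided permutation p of 0.10 (Benjamini-Hochberg adjusted p = 0.167). That is the smallest p that 3 against 3 libraries can give, so none could pass 0.05. The pairs share members, so these tests are not independent, and 1 changed gene can separate several ratios. Many of the 18 contain FOS, whose own level differed between all groups. The count was not set beside one for pairs of other genes, and it is given as a description only. Of the 4 ratios with FOS as numerator, all were separated in both comparisons with control, and 3 between the concentrations, the exception being FOS to FOSB (exact p = 0.2).

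**Figure D4:**
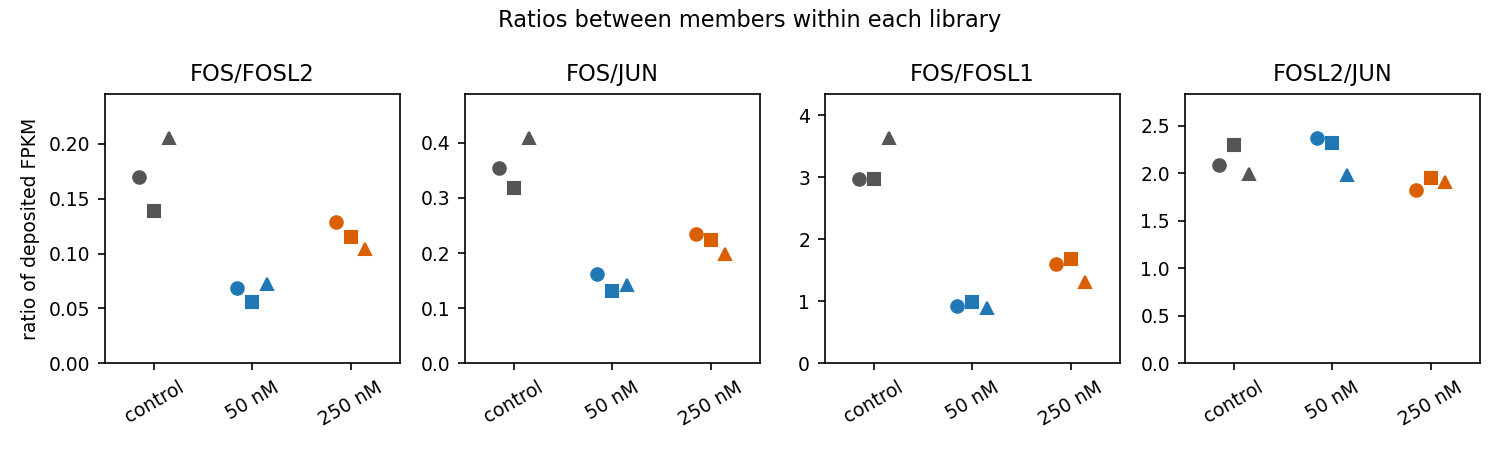
Ratios of deposited FPKM between pairs of members (vertical axes, from 0) in the control, 50 nM and 250 nM libraries; each point is 1 library, its shape the replicate number as in the plot of CPM by library. The 3 ratios with FOS are lowest at 50 nM with no overlap, whereas FOSL2 to JUN stays between 1.83 and 2.37.

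The gene lists in this and the following paragraphs were chosen with earlier results of these data known. Their shares of calls, set beside those of all genes, are therefore a description only. Other basic leucine zipper genes can pair with FOS or JUN proteins, and 10 of 17 such partner genes were tested. None passed edgeR's threshold at 50 nM, 250 nM or between the concentrations; at an unadjusted p under 0.05 there were 4, 2 and 2. DESeq2 called 3, 1 and 1, and limma-voom called 0 in each. Their median log2 fold changes were 0.07, 0.00 and 0.00. ATF3, a stress-induced partner of JUN, had 28.2 ± 0.585 CPM in controls, 32.8 ± 1.74 CPM at 50 nM and 34.2 ± 0.707 CPM at 250 nM (0.22 ± 0.07 and 0.28 ± 0.07, edgeR adjusted p = 0.089 and 0.126). ATF3 was named for its likeness to FOSL1, described below.

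Among 25 tested genes of the MAP kinases and serum response factors that act on FOS and JUN, 2 passed at 50 nM, 1 higher and 1 lower. MRTFA, a cofactor of serum response factor, rose from 156 ± 7.72 to 188 ± 6.64 CPM (0.27 ± 0.06, edgeR adjusted p = 0.0133). MAP2K4, a kinase that activates the JUN kinases, fell from 41.6 ± 1.57 to 34.8 ± 1.55 CPM (-0.26 ± 0.07, edgeR adjusted p = 0.0471). The list's share of calls was 8% against 3.25% of all genes, with a median of -0.01. At 250 nM 0 passed, with 0 at an unadjusted p under 0.05 and 0 by DESeq2 or limma-voom. Between the concentrations 0 passed, with 2 at an unadjusted p under 0.05 and 0 by the other tools. MRTFA lost its call without control replicate 3 or 50 nM replicate 2 (adjusted p up to 0.0878), with only those 2 groups in the fit and in the 3 fits on log2 FPKM values. MAP2K4 lost it without any single library other than 50 nM replicate 3 (up to 0.195), with RLE or upper-quartile factors, with only those 2 groups in the fit and on log2(FPKM + 1) without a filter.

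Among 10 tested genes that act on the turnover of FOS and JUN messages or proteins, 2 fell at 50 nM and 0 rose, or 20% beside 3.25% of all genes called and 1.70% called lower. Both belong to the ZFP36 family, which binds AU-rich elements such as the one in the FOS message and promotes decay. ZFP36L1 fell from 219 ± 10.9 to 174 ± 9.70 CPM (-0.34 ± 0.06, edgeR adjusted p = 0.00414). ZFP36, itself an immediate early gene, fell from 25.4 ± 2.38 to 18.1 ± 0.393 CPM (-0.49 ± 0.09, edgeR adjusted p = 0.00718). ZFP36L2, of the same family, went the other way at 50 nM, with 90.4 ± 4.95 CPM in controls and 104 ± 2.02 CPM under treatment. All 3 libraries lay above every control, but it did not pass (0.196 ± 0.0575, edgeR adjusted p = 0.0836). DESeq2 called it higher. At 250 nM 0 of 10 passed, with 2 at an unadjusted p under 0.05, 2 by DESeq2 and 0 by limma-voom. ZFP36L2 was lower at 250 nM than at 50 nM, at 83.8 ± 2.58 against 104 ± 2.02 CPM (-0.31 ± 0.06, edgeR adjusted p = 0.0306). This call was lost without control replicate 3, without 50 nM replicate 1 or 2 and without each of the 250 nM libraries (adjusted p up to 0.218), and in the 3 fits on log2 FPKM values.

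Of 25 tested textbook AP-1 target genes, 6 passed at 50 nM (24%, beside 3.25% of all genes), of which 5 rose and EDN1 fell. HBEGF, a growth factor of the EGF family, rose from 19.2 ± 1.63 to 32.5 ± 3.86 CPM (0.76 ± 0.10), and the chemokine gene CCL2 from 9.83 ± 1.70 to 15.9 ± 2.07 CPM (0.70 ± 0.15). HMOX1, the haem-degrading oxygenase (0.37 ± 0.08), and PLAU, the urokinase protease (0.34 ± 0.06), also rose. EDN1, the endothelin 1 gene, fell from 234 ± 17.8 to 166 ± 5.63 CPM (-0.50 ± 0.06). Each of these named genes had an edgeR adjusted p of 0.0203 or lower, and the list's median was 0.10. HMOX1 and CCL2 lost the call without control replicate 2 or 3 or 50 nM replicate 1 or 2 (adjusted p up to 0.112 and 0.102). On log2(FPKM + 1) without a filter HMOX1, CCL2 and PLAU lost it, and CCL2 also on log2(FPKM + 0.1).

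At 250 nM 3 of the 25 passed (12%, beside 0.308% of all genes): IL6 rose (0.62 ± 0.11), HBEGF rose (0.49 ± 0.10) and EDN1 fell (-0.35 ± 0.06), with edgeR adjusted p of 0.0227, 0.0393 and 0.0205 and a list median of 0.13. All 3 calls were lost without control replicate 1 or 3 or 250 nM replicate 2 or 3. HBEGF and IL6 were also lost without control replicate 2, and HBEGF and EDN1 without 250 nM replicate 1 (adjusted p up to 0.26 for HBEGF, 0.157 for IL6 and 0.156 for EDN1). All 3 were also lost in each of the 3 fits on log2 FPKM values, and HBEGF with limma-voom. Between the concentrations 0 of 25 passed, with 6 at an unadjusted p under 0.05, 1 by DESeq2 and 0 by limma-voom.

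Among 22 tested immediate early genes outside the FOS and JUN families, 8 fell and 3 rose at 50 nM (50% called, beside 3.25% of all genes; median -0.24). At 250 nM 2 fell and 3 rose (22.7%, beside 0.308% of all genes; median 0.12), and 9 were higher and 1 lower at 250 nM than at 50 nM (45.5%, beside 0.325% of all genes; median 0.31). EGR1, a zinc finger factor that shares serum response elements with FOS, had 305 ± 33.4 CPM in controls, 41.6 ± 9.24 CPM at 50 nM and 216 ± 40.4 CPM at 250 nM. EGR1 passed at 50 nM (-2.87 ± 0.16, edgeR adjusted p = 3.93e-08). It did not pass at 250 nM against control (-0.50 ± 0.14, edgeR adjusted p = 0.231). Between the concentrations it passed (2.38 ± 0.15, edgeR adjusted p = 1.4e-06). IER3, BTG2 and KLF6 fell at 50 nM (-0.64 ± 0.06, -0.89 ± 0.09 and -0.56 ± 0.08, edgeR adjusted p up to 0.00123) and were higher again at 250 nM than at 50 nM (0.55 ± 0.06, 0.68 ± 0.09 and 0.44 ± 0.08, edgeR adjusted p up to 0.0334). DUSP1, a phosphatase of MAP kinases, and the matricellular gene CYR61 fell at both concentrations, as FOS did. DUSP1 had 315 ± 19.6, 173 ± 7.40 and 220 ± 3.99 CPM in the controls, at 50 nM and at 250 nM.

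The repressor gene KLF10 and CSRNP1 went the other way. KLF10 rose at both concentrations (0.79 ± 0.07 and 0.40 ± 0.07) and was lower at 250 nM than at 50 nM (-0.39 ± 0.07, edgeR adjusted p = 0.0134). CSRNP1 rose at both (0.35 ± 0.07 and 0.49 ± 0.07). EGR3, unlike EGR1, also rose at both (0.91 ± 0.20 and 1.16 ± 0.20, edgeR adjusted p = 0.0189 and 0.0182). Its level was low, at 1.32 ± 0.122, 2.49 ± 0.503 and 2.96 ± 0.114 CPM in controls, at 50 nM and at 250 nM. Its calls were not followed when single libraries were left out. ZFP36 and SRF stand in this list and in another of the lists above. Some calls at 250 nM against control were lost without 1 library: CYR61 and KLF10 without control replicate 1 or 3 or 250 nM replicate 2 or 3, CYR61 also without 50 nM replicate 1 (adjusted p up to 0.198 and 0.143), and CSRNP1 without 250 nM replicate 2 or 3 (up to 0.0534). At 50 nM, CSRNP1 lost its call without control replicate 2 (0.0512). Between the concentrations DUSP1, KLF10 and KLF6 lost theirs without 50 nM replicate 2 or 250 nM replicate 1 or 2, KLF10 and KLF6 also without 50 nM replicate 1, and KLF6 without 50 nM replicate 3 (up to 0.0841, 0.139 and 0.25). In the 3 fits on log2 FPKM values, calls were lost for CSRNP1 at 50 nM, for CYR61, KLF10 and CSRNP1 at 250 nM, and for KLF10 and KLF6 between the concentrations. DUSP1, CYR61 and BTG2 lost theirs between the concentrations on log2(FPKM + 1) without a filter.

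Likeness to each member was measured by Pearson's r of log2 CPM over the 9 libraries, among 7595 genes with a symbol and a mean of at least 5 CPM. The libraries share their groups, which set much of this r for FOS and JUN, so it is given as a description. The gene most like FOS was CYR61 (r = 0.99), at 1629 ± 105, 979 ± 2.01 and 1322 ± 57.2 CPM in controls, at 50 nM and at 250 nM. BTG2, the ubiquitin ligase gene RNF169 and the splicing regulator gene TRA2A followed (r = 0.97 for each). The genes most unlike FOS were TNFAIP3, an inhibitor of NF-κB signalling, and TGFBI, a matrix protein gene induced by TGF-β (r = -0.98 for both). Both were lowest in controls and highest at 50 nM, the reverse of FOS.

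The genes most like JUN were FAM222A (r = 0.97), the protein kinase D gene PRKD2 (0.94), GDPD5 (0.92) and SPRY1, a feedback inhibitor of growth factor signalling (0.91). Each had its lowest group mean at 50 nM. SMAD7, the TGF-β feedback inhibitor (r = -0.95), and the kinase gene NUAK2 (-0.95) were most unlike it, with the highest mean at 50 nM and the lowest at 250 nM. For FOS and JUN, leaving out any 1 library kept these r between 0.88 and 0.998 or between -0.93 and -0.99.

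**Figure D5:**
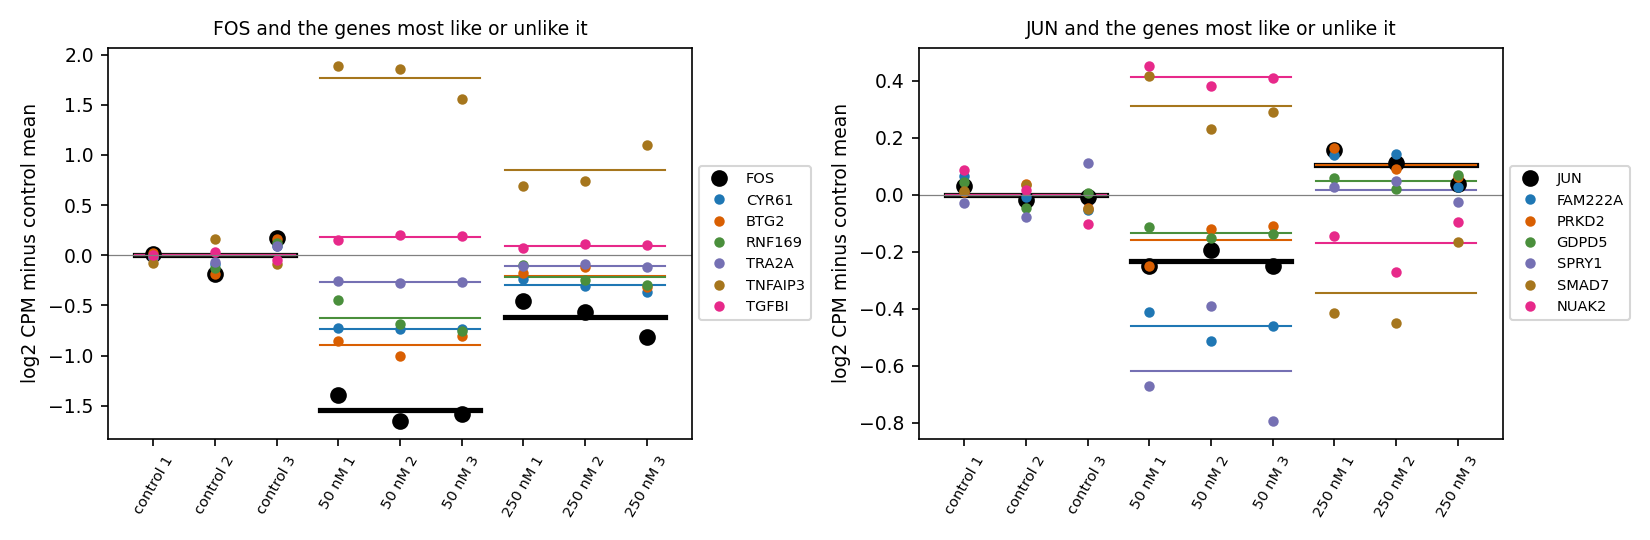
Log2 CPM minus the control mean (vertical axis) in each of the 9 libraries for FOS (left) and JUN (right), in black, with the 4 genes most like and the 2 most unlike each; points are libraries and horizontal lines group means. FOS has the widest fall of its like genes, and JUN returns to or above the control level at 250 nM with the genes like it.

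FOSL1 was most like ATF3 (r = 0.91), the partner of JUN described above, followed by NUDT7 (0.87), the annexin gene ANXA7 (0.87) and the death receptor gene FAS (0.85). TMEM62 and ZBTB34 were most unlike it (-0.94 and -0.93). FOSL2 was most like AMMECR1L (0.94), UHRF1BP1 (0.92), MAP3K10 (0.92) and the forkhead factor gene FOXO3 (0.91), and most unlike the ribonucleotide reductase gene RRM2 (-0.96) and the collagen hydroxylase gene P4HA2 (-0.95). For AMMECR1L, UHRF1BP1, MAP3K10 and FOXO3, r went as low as 0.79, 0.71, 0.72 and 0.78 without 1 library. For ATF3, NUDT7, ANXA7 and FAS with FOSL1 it went as low as 0.87, 0.84, 0.81 and 0.80. FOSB was most like PPARA (0.96), NBR1 (0.94), PCMTD1 (0.94) and TOM1 (0.93), and most unlike PUS1 (-0.97) and LITAF (-0.96). Those 6 genes, like FOSB, had their largest spread within the 50 nM group, and PPARA, for example, had 19.7 ± 0.42, 19.7 ± 2.35 and 21.0 ± 1.39 CPM in controls, at 50 nM and at 250 nM. Without 1 library, r with FOSB went as low as 0.91, 0.91, 0.86 and 0.85 for PPARA, NBR1, PCMTD1 and TOM1. The counting error of FOSB, given above, also enters these r. Between members, r was 0.74 for FOS with JUN, 0.57 for FOS with FOSL2, 0.53 for FOSL2 with JUN and -0.30 for FOS with FOSL1.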

How the data were processed

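Per the submitters' processing notes, reads were handled with Trim Galore, TopHat2 2.1.1, Cufflinks and Cuffdiff; build, annotation and strand setting were not given in the sources used. For each gene, the authors deposited an estimated count and an FPKM value in every library. Counts are whole numbers whose low values peak at multiples of 4. Overlapping or antisense genes could share counts. CPM were computed here. Columns were matched to samples by group and number. Same-group libraries differed beyond sampling noise (chi-square per degree of freedom 3.08 to 11.6). Here, edgeR 4.0.16 in R 4.3.3 (quasi-likelihood test, TMM factors, filterByExpr with minimum count 10, all 9 libraries) was fitted over 12324 genes, with Benjamini-Hochberg adjustment within each comparison and a threshold of 0.05; it was tested on simulated data. Ratios used deposited FPKM and exact permutation tests. The members and gene lists were chosen with earlier results of these data known. List genes named are those past the threshold, up to 8 of lowest p per list, and EGR3 beyond that limit. The 4 most and 2 least like genes are named per member. The values of 1 called target gene are not reported here. Alternatives used DESeq2 1.42.0, limma 3.58.1, other scaling, filters, FPKM with pseudocounts of 1 and 0.1, counts divided by 4, the replicate block and leaving out each library.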

Additional observations from a re-analysis of the deposited data

Results flagged for a closer look

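FOS and JUN differed between the 2 concentrations of estradiol by a direct test: 250 nM minus 50 nM was 0.93 on the log2 scale for FOS and 0.34 for JUN. For JUN in CPM, all 3 libraries at 50 nM lay below every control and all 3 at 250 nM lay above every control. The latter difference did not pass against the control, and in deposited FPKM those 2 groups overlapped. For FOS, both concentrations lay below every control. Groups of 3 are too small for a check of single outlying libraries.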

How the results depend on the processing

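Across the alternatives no called value of a member or named gene reversed its direction, with EGR3 not followed there. For single genes 1428 values kept their side of the threshold, 131 lost the call and 13 gained one. Genes called at 50 nM numbered 401, and 702 with DESeq2, 244 with only the 2 groups in the fit and 234 on log2(FPKM + 1) without a filter. Genes called at 250 nM numbered 38, and 140 with DESeq2, 14 on log2(FPKM + 1), 15 on log2(FPKM + 0.1) and 4 on log2(FPKM + 1) without a filter. Between the concentrations 40 were called, and 99 with DESeq2 and 11 on log2(FPKM + 1) without a filter. Members called at 50 nM went from 2 to 1 with only the 2 groups in the fit; at 250 nM from 1 to 2 with DESeq2 and to 0 on log2(FPKM + 1), with and without a filter, and on log2(FPKM + 0.1); between the concentrations from 2 to 1 on log2(FPKM + 1) without a filter.

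Leaving out 1 library in turn gave 187 to 564 genes at 50 nM, 5 to 56 at 250 nM and 21 to 50 between the concentrations, and 1 to 2, 0 to 1 and 1 to 2 members. Same-numbered libraries correlated by -0.03 to 0.04 in their deviations from group means, and differently numbered ones by -0.08 to 0.07. With 3 libraries a group these values cannot exclude that replicate numbers pair libraries. With the replicate block 492, 43 and 42 genes were called, and 2, 1 and 2 members. With at least 5 CPM in 3 libraries FOSB was not tested. All 210 alternative values of the member ratios moved by less than 1 SD. Depth limits FOSB most.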
